A study of Mus musculus with 4 samples.

Results

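The D-type cyclins, the G1 kinases they activate and the inhibitors that hold those kinases back were followed in hematopoietic progenitors of non-obese diabetic (NOD) mice, on 4 Affymetrix whole-transcript arrays, 1 per sample. Of the 10 genes Ccnd1, Ccnd2, Ccnd3, Cdk4, Cdk6, Cdkn1a, Cdkn1b, Cdkn1c, Cdkn2c and Cdkn2d, 9 had a probe set whose platform annotation gives that symbol and no other, out of 30142 genes named in this way, and each of the 9 had 1 such probe set. The probe set of Ccnd1 also lists Mir3962 and was not analysed here. Cells negative for lineage markers and positive for c-Kit (LK cells) were kept for 4 h in StemSpan medium. The combination group, 2 samples, received dimethyl prostaglandin E2 (dmPGE2) and dexamethasone, each at 10 µM, and the vehicle group, 2 samples, received DMSO. dmPGE2 mimics prostaglandin E2 but is broken down more slowly, and prostaglandin E2 can raise cAMP through its receptors. Dexamethasone activates the glucocorticoid receptor. No array carried 1 drug alone. LK cells are a mixture of stem cells and committed progenitors, and the labels give neither the age of the mice nor how many stood behind each sample.

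A cell decides in G1 whether to enter a further division. D cyclins, whose levels follow growth factor signals, bind CDK4 or CDK6, and the complexes phosphorylate the retinoblastoma protein, which then releases E2F transcription factors and with them the genes of DNA synthesis. INK4 proteins (Cdkn2c encodes p18, Cdkn2d p19) bind CDK4 and CDK6 directly, while CIP/KIP proteins (Cdkn1a encodes p21, Cdkn1b p27, Cdkn1c p57) bind cyclin-CDK complexes and inhibit CDK2 above all. In blood-forming tissue CDK6 and cyclins D2 and D3 serve progenitor expansion, and p57, p27 and p18 are known for their part in stem cell quiescence.

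Start regions of 3 of these genes are shown because Cdk4 had the largest downward difference, Cdkn1b the largest upward one and Cdkn1a the widest spread between arrays. They are RefSeq sequences of build GRCm38.p6, plus strand, from 250 bases before to 50 bases after an annotated start. Capitals mark E-boxes (CACGTG, bound by MYC with MAX among others) in Cdk4 at chr10:127063285-127063584, a CRE half-site (TGACG on either strand, part of the cAMP response element) in Cdkn1b at chr6:134920151-134920450, and p53-type matches (ACATGTC on either strand) at the upstream one of both listed starts of Cdkn1a, chr17:29090729-29091028.
Cdk4: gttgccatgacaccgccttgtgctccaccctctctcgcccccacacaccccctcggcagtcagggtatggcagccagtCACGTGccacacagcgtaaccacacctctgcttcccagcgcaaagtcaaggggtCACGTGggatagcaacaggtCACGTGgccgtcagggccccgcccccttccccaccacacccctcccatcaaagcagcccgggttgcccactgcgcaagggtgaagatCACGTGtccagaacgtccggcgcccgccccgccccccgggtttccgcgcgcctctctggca
Cdkn1b: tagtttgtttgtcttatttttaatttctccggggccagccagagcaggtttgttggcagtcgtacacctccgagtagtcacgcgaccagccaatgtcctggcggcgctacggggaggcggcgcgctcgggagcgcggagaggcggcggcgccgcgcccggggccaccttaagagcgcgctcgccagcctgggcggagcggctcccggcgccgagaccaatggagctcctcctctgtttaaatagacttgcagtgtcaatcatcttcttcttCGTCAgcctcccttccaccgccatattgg
Cdkn1a: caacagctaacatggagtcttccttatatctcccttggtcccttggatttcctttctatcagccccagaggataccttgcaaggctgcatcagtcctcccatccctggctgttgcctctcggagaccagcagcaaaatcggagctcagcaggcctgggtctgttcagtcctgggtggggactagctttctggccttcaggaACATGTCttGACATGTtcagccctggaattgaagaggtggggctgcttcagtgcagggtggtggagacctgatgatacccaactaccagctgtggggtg
The Cdk4 region held 4 E-boxes, whose first bases lay at -172, -118, -98 and -11 from the start. Of 32851 start regions of the same length, 7.15% held at least 1 E-box and 8 held 4 or more. The 2 matches in Cdkn1a began at -49 and -40 and did not overlap. The other listed start of Cdkn1a, not printed, held 0. At least 1 such match was in 2.01% of all start regions, and 93 of them held 2 or more. The CRE half-site of Cdkn1b began at 22 after the start, and 20.8% of all start regions held one. The Cdk4 region also held 1, not in capitals here, as did the start region of Cdk6 and both listed starts of Ccnd3. The glucocorticoid receptor half-site AGAACA, on either strand, was in 19.0% of all start regions and in none of the 3 printed. The start region of Cdk6 and the first listed start of Cdkn2c, not printed, held 1 each. The Cdk6 region and the other listed start of Cdkn2c also held 1 E-box each. A match describes the letters only.

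Values are log2 signals made by the authors with RMA, which corrects background, normalizes the arrays to each other and merges probes into 1 value per probe set, and differences are combination minus vehicle. Single background probe sets, which match no mouse transcript by design, reached 5.55. Kit, the gene of the sorting marker, was at 10.51 and 9.62 on the combination arrays and at 10.18 and 10.32 on the vehicle arrays. Of 7 measured T and NK cell markers 6 lay within the range of background probe sets on all arrays, and Nkg7 did not. Of 6 measured B cell markers 4 lay there, Cd79b and Vpreb1 being the exceptions. The arrays numbered 1 in both groups stood apart from those numbered 2 in neutrophil genes: the summed linear signal of 9 neutrophil markers was 96892 and 26625 on combination arrays 1 and 2, against 92704 and 19980 on vehicle arrays 1 and 2. Of these 9, Ly6g and Mmp9 lay within the background range on all arrays. Of 8 monocyte and macrophage markers none passed the adjusted threshold of 0.05 in limma, and 2 were higher and 3 lower at p under 0.05 before adjustment, which 5.58% of all features reached. Their summed signals were 6297 to 7802 in the combination group against 4709 to 7904 in the vehicle group. Of these 8, C1qa lay within the background range on all arrays. Their part in the differences of the G1 genes was not tested, and in such bulk samples fewer cells of a type and less RNA per cell cannot be told apart. For this reason the differences within number 1 and within number 2 are given beside each of the 9 genes.

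Genes that respond to either drug differed widely on the same arrays. All 8 genes listed as checks of glucocorticoid and cAMP exposure had both combination arrays above both vehicle arrays, as did 20.4% of all features. One of the 8, the orphan receptor gene Nr4a1, lay within the background range on all arrays, with a difference of 0.50. The clock gene Per1 was at 7.52 and 7.90 on the combination arrays, against 5.53 and 5.75 on the vehicle arrays. Tsc22d3, which encodes the glucocorticoid-induced leucine zipper, was at 7.04 and 7.07, against 5.88 and 5.78. Neither passed limma's test after Benjamini-Hochberg adjustment over all 65956 features (adjusted p = 0.21 and 0.27). The median difference of these 8 genes was 1.49, against -0.10 for the 9 G1 regulators and 0.02 for all features. These 8 were chosen with earlier results of these data known, so their direction and size are no independent yardstick. The median of the 9 had no steady sign, with -0.12 within number 1 and 0.20 within number 2, 0.10 without vehicle 1 and 0.0041 without combination 1.

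The G1 regulators differed by less. None of the 9 passed the adjusted threshold of 0.05 in limma, which 0.00303% of all features passed. In limma, 1 of the 9, Cdkn1b, was higher at a p under 0.05 before adjustment and 0 were lower. Of all features 5.58% reached that p, 3.14% higher and 2.44% lower. All 9 differences lay between -0.31 and 0.59 on the log2 scale. In 7 of the 9 the 95% interval of the difference, from limma's moderated standard error, stayed within 1 on the log2 scale, a factor of 2, on either side of 0. The exceptions were Cdkn1a and Cdkn1b. Of the 7, Cdkn1c, Cdkn2c and Cdkn2d lay within the background range on all arrays, where RMA compresses differences. For these 3 a narrow interval does not bound the change. The arrays of the groups did not overlap for 6 of the 9, with 2 higher (Cdkn1b and Cdkn2d) and 4 lower (Ccnd3, Cdk4, Cdk6 and Cdkn1c) in the combination group. Over all features 34.2% did not overlap, 20.4% higher and 13.9% lower. The difference had the same sign within number 1 and within number 2 for 7 of the 9. Genes whose groups do not overlap have the same sign by construction. The difference was larger than the wider replicate gap of either group for 3 (Cdkn1b, Cdk4 and Cdkn1c). For neither count was the share over all features computed.

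**Figure D1:**
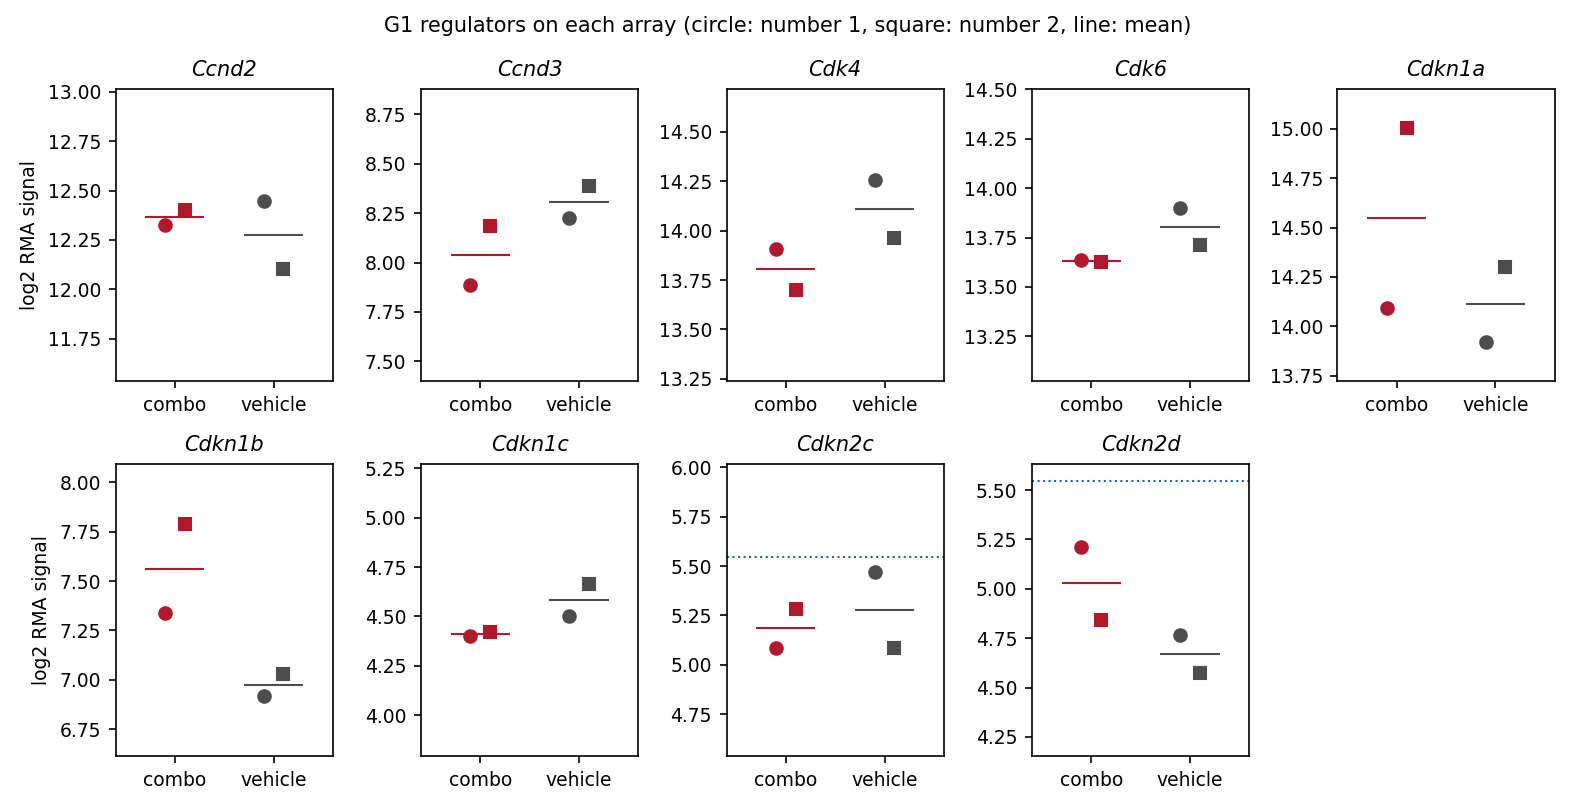
Log2 RMA signal of the 9 G1 regulators on each array, with the combination (combo) left of vehicle, circles for arrays numbered 1, squares for those numbered 2 and a line at each group's mean. Panels span the same number of log2 units but start at different levels, and the dotted line marks the highest background probe set (5.55). Cdkn1b is higher on both combination arrays, Cdk4 is lower on both, and combination array 2 stands alone at 15.00 for Cdkn1a.

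The D cyclins start the G1 programme. Ccnd2, which encodes cyclin D2, was at 12.32 and 12.40 on the combination arrays, against 12.45 and 12.10 on the vehicle arrays. The combination arrays lay between the vehicle arrays, so the groups overlapped. The difference was 0.09 (SE 0.17, 95% interval -0.36 to 0.54, limma adjusted p = 0.98), and it was -0.12 within number 1 and 0.30 within number 2. Ccnd3, which encodes cyclin D3, was at 7.89 and 8.19 on the combination arrays, against 8.23 and 8.39 on the vehicle arrays. Both combination arrays were the lower ones, but combination 2 came within 0.04 of vehicle 1. The difference was -0.27 (SE 0.17, 95% interval -0.71 to 0.17, limma adjusted p = 0.94), smaller than the gap of 0.30 between the combination arrays. It was -0.34 within number 1 and -0.20 within number 2.

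Both kinases that D cyclins activate were lower on both combination arrays. Cdk4 was at 13.91 and 13.70, against 14.26 and 13.96 on the vehicle arrays. The groups lay just apart, by 0.05 between combination 1 and vehicle 2. The difference was -0.31 (SE 0.17, 95% interval -0.76 to 0.15, limma adjusted p = 0.94), with -0.35 within number 1 and -0.26 within number 2. Cdk6, the kinase that prevails in hematopoietic progenitors, was at 13.64 and 13.62, against 13.90 and 13.71 on the vehicle arrays. The combination arrays were nearly equal and the vehicle arrays spread upward from them. The difference was -0.17 (SE 0.14, 95% interval -0.54 to 0.19, limma adjusted p = 0.95), and the vehicle arrays were 0.19 apart. Within number 1 it was -0.26 and within number 2 -0.09.

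The CIP/KIP inhibitors held the largest differences. Cdkn1b, the gene of p27, was at 7.34 and 7.79 on the combination arrays, against 6.92 and 7.03 on the vehicle arrays. Every combination array was above every vehicle array, by 0.31 at the closest, while the combination arrays were 0.45 apart and the vehicle arrays 0.11. The difference was 0.59 (SE 0.20), 1.51-fold with a 95% interval of 1.05-fold to 2.16-fold, and its p of 0.034 before adjustment became 0.85 over all features in limma. It was 0.42 within number 1 and 0.76 within number 2. Without combination 2 the difference was 0.36, and the unadjusted p in limma was 0.055 with an intensity trend and 0.11, 0.13 and 0.083 without combination 2, vehicle 1 and vehicle 2.

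Cdkn1a, the gene of p21 and a classic p53 target, was at 14.09 and 15.00 on the combination arrays, against 13.92 and 14.30 on the vehicle arrays. Combination 2 was the highest array, while combination 1 lay between the vehicle arrays. The difference was 0.44 (SE 0.35, 95% interval -0.48 to 1.36, limma adjusted p = 0.95), less than the gap of 0.91 between the combination arrays. It was 0.17 within number 1 and 0.70 within number 2, and -0.02 without combination 2. Cdkn1c, the gene of p57, was at 4.40 and 4.42, against 4.50 and 4.67 on the vehicle arrays. All 4 values lay within the range of background probe sets, where RMA compresses differences, and the difference was -0.17 (SE 0.14, limma adjusted p = 0.95), with -0.10 within number 1 and -0.25 within number 2.

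The INK4 inhibitors were dim as well. Cdkn2d, the gene of p19, was at 5.21 and 4.84 on the combination arrays, against 4.77 and 4.57 on the vehicle arrays. Both combination arrays were higher, with a difference of 0.36 (SE 0.19, 95% interval -0.13 to 0.85, limma adjusted p = 0.93), close to the gap of 0.37 between them. It was 0.45 within number 1 and 0.27 within number 2. Cdkn2c, the gene of p18, was at 5.08 and 5.28, against 5.47 and 5.09 on the vehicle arrays. The groups overlapped and the difference was -0.10 (SE 0.19, limma adjusted p = 0.98), with -0.39 within number 1 and 0.20 within number 2. For both genes all 4 arrays lay within the background range.

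**Figure D2:**
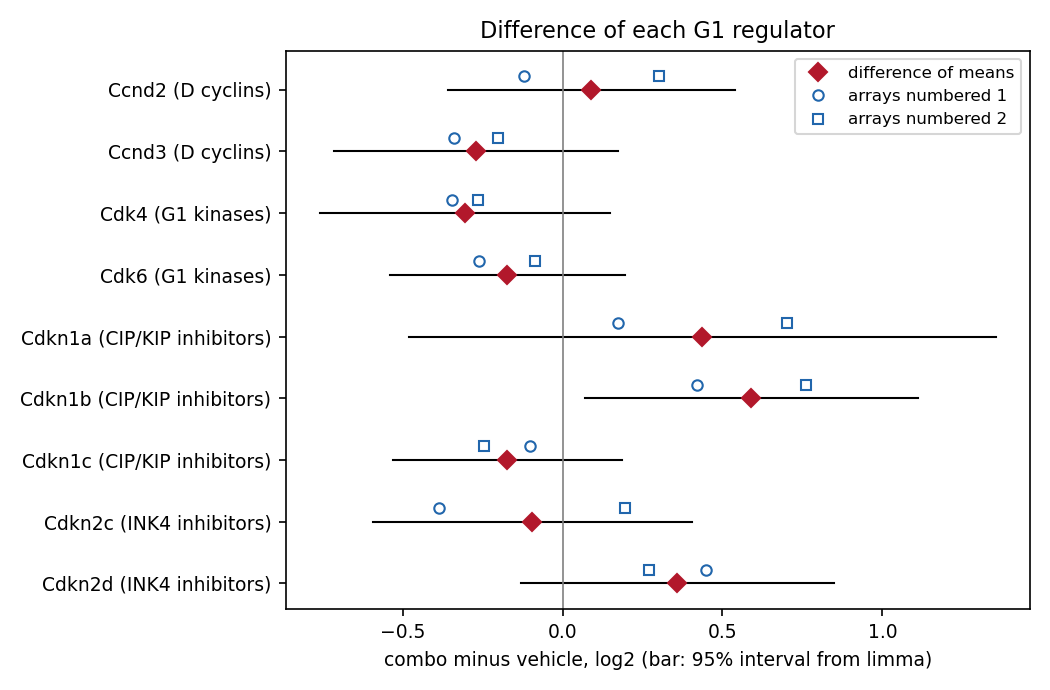
Difference of each gene, combination minus vehicle, on the log2 scale, with the 95% interval from limma as a bar and the differences within arrays numbered 1 (open circles) and 2 (open squares). The interval of Cdkn1b is the only one of the 9 that leaves out 0, and the intervals of Cdkn1a and Cdkn1b alone reach beyond 1.

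Around these genes, 97 of 103 listed genes of the pathway and its surroundings were measured, in 7 lists. None passed the adjusted threshold in limma, and at an unadjusted p under 0.05, 2 were higher and 3 lower. Of all features, 3.14% were higher and 2.44% lower at that p. The combination mean was the lower one for 72 of the 97, and both combination arrays lay below both vehicle arrays for 28 and above them for 4. Over all features the shares were 13.9% below and 20.4% above. The median difference over the 97 was -0.14, with -0.23 within number 1 and -0.07 within number 2, against 0.02 over all features. The share of all features with a lower combination mean was not computed, nor any share over features of like signal.

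RB and E2F proteins, the substrates of the D cyclin kinases and their partners, had a median of -0.23 over 13 genes, with -0.32 within number 1 and -0.07 within number 2. Both combination arrays lay below both vehicle arrays for 7 of the 13, and above them for 0. Of all features, 13.9% lay below and 20.4% above in this way. For the 7 genes the closest gap between the groups ran from 0.02 (E2f2) to 0.26 (E2f4). E2f4, which encodes a mainly repressive E2F of resting cells, was at 11.75 and 11.50 on the combination arrays, against 12.29 and 12.01 on the vehicle arrays. Its difference of -0.52 had a p of 0.034 in limma before adjustment (adjusted p = 0.85), and it was the only one of the 13 under 0.05. Rb1, the gene of the retinoblastoma protein, was at 11.00 and 11.49, against 11.93 and 11.59, with its lowest value on combination 1. E2f1, an activating E2F, was at 7.80 and 8.11, against 8.74 and 8.21, where vehicle 1 stood above the other 3 arrays. E2f8, an atypical repressor, was at 10.16 and 10.64, against 10.86 on both vehicle arrays. In limma the adjusted p was 0.92 for Rb1 and E2f1 and 0.91 for E2f8.

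Cyclin E, CDK2 and their activators act after the D cyclins. None of 9 passed at an unadjusted p under 0.05 in limma, and the median difference was -0.10. Ccne1, which encodes cyclin E1, was at 11.73 and 11.72 on the combination arrays, against 12.42 and 11.79 on the vehicle arrays. Only vehicle 1 stood clearly above the other arrays. The phosphatase gene Cdc25a was at 9.41 and 9.21, against 9.66 and 9.48. Ccnh, whose cyclin H forms the CDK-activating kinase with CDK7, differed by -0.35 and Cdk2 by -0.21, and both had overlapping groups.

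Genes of p27 and cyclin turnover and of other inhibitors had a median of -0.08 over 12, with 0 at an unadjusted p under 0.05 in limma. Skp2, whose product marks p27 for degradation, was at 8.20 and 8.70 on the combination arrays, against 8.83 and 9.24 on the vehicle arrays. Both combination arrays were lower, a difference of -0.58 (SE 0.25, limma adjusted p = 0.90), while Cdkn1b transcript was 0.59 higher on the same arrays. The arrays do not measure p27 protein, and a link between these differences was not tested. Fbxo4, which encodes an F-box protein linked to cyclin D1 turnover, was at 6.45 and 6.43, against 6.21 and 5.79, a difference of 0.44. The other INK4 genes, Cdkn2a and Cdkn2b, lay within the background range on all 4 arrays.

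**Figure D3:**
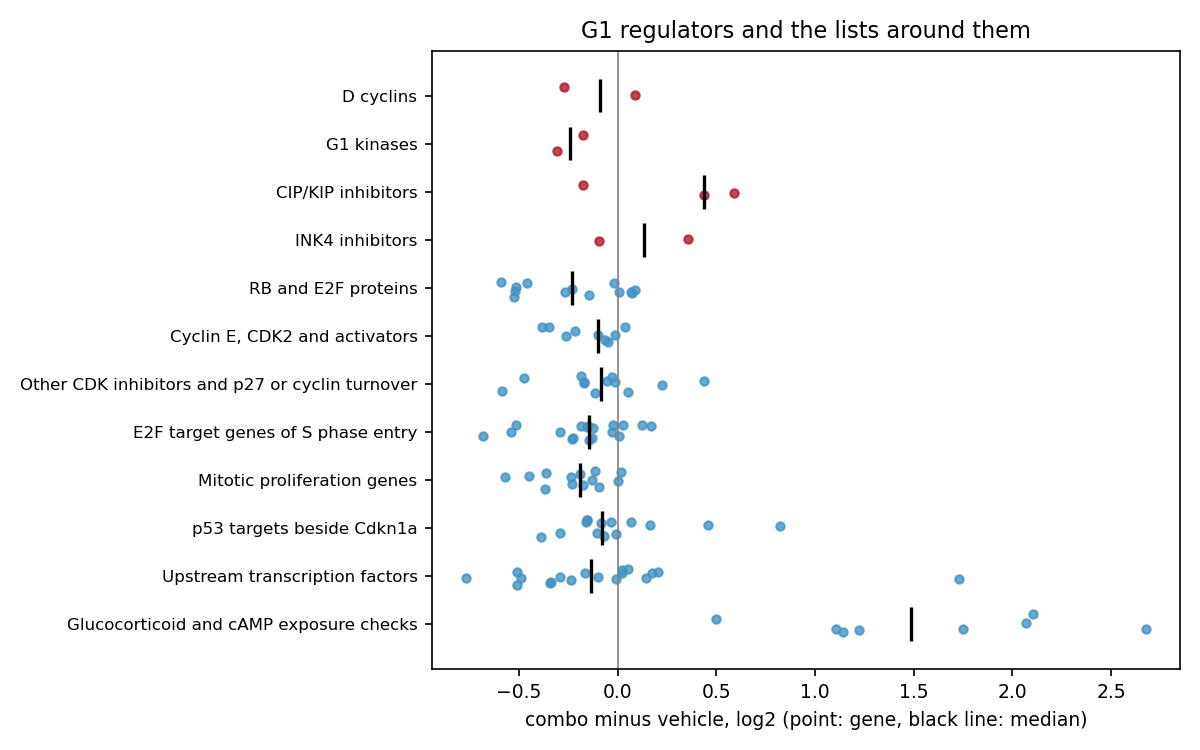
Difference of each gene, combination minus vehicle, on the log2 scale, by list, with a black line at the median of each. The 4 groups of G1 regulators are red, and the lists around them blue. The exposure checks have a median of 1.49, while the medians of the 7 pathway lists lie between -0.23 and -0.08.

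Genes that E2F factors switch on for S phase had a median difference of -0.15 over 18 measured, with -0.22 within number 1 and -0.13 within number 2. None passed at an unadjusted p under 0.05 in limma. Tk1, the gene of thymidine kinase, was at 8.83 and 8.55 on the combination arrays, against 9.73 and 9.01 on the vehicle arrays. Mcm6, of the replicative helicase, was at 13.20 and 12.66, against 13.73 and 13.17, so that its groups overlapped. For 13 measured mitotic genes the median was -0.19, with -0.34 within number 1 and -0.05 within number 2, and again 0 passed at an unadjusted p under 0.05. Bub1, a spindle checkpoint kinase gene, was at 10.62 and 10.39, against 10.88 and 10.86. Ccnb2, which encodes cyclin B2, was at 12.00 and 11.71, against 12.78 and 12.07.

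Cdkn1a was set beside 14 further p53 targets, whose median difference was -0.08. Trp53inp1, a p53-induced nuclear protein gene, was at 7.28 and 7.62 on the combination arrays, against 6.39 and 6.87 on the vehicle arrays. It was higher on both combination arrays, by 0.82 (SE 0.23, limma adjusted p = 0.80), and was the 1 gene of the list with an unadjusted p under 0.05 (0.019 in limma). Sesn1, a stress-induced regulator of growth signalling, was at 8.22 and 8.01, against 8.73 and 8.28, a difference in the other direction of -0.39. The remaining 12 did not reach an unadjusted p under 0.05.

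Of 18 measured transcription factors that act on G1 genes, 1 was higher and 2 lower at p under 0.05 before adjustment in limma, with a median of -0.13. Of all features, 3.14% were higher and 2.44% lower at that p. Among the 18, 5 lay within the background range on all arrays. Myc, whose product drives growth and cell cycle entry, was at 11.31 and 11.00 on the combination arrays, against 12.09 and 11.75 on the vehicle arrays. Both combination arrays were clearly lower, by 0.44 at the closest, and the difference was -0.77 (SE 0.20, limma adjusted p = 0.78). Cdk4, with the 4 E-boxes printed above, was lower on the same arrays by less. A link between Myc and Cdk4 was not tested. Klf6, a Kruppel-like factor known to act on Cdkn1a, was at 10.16 and 11.55, against 8.76 and 9.49, a difference of 1.73 (SE 0.53, limma adjusted p = 0.82) with a wide gap between the combination arrays. The other lower gene was Myb, a progenitor factor named here after its value was seen, at -0.51. Foxo1 and Foxo3, whose factors are known to act on Cdkn1b and were also named afterwards, differed by 0.02 and 0.18.

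**Figure D4:**
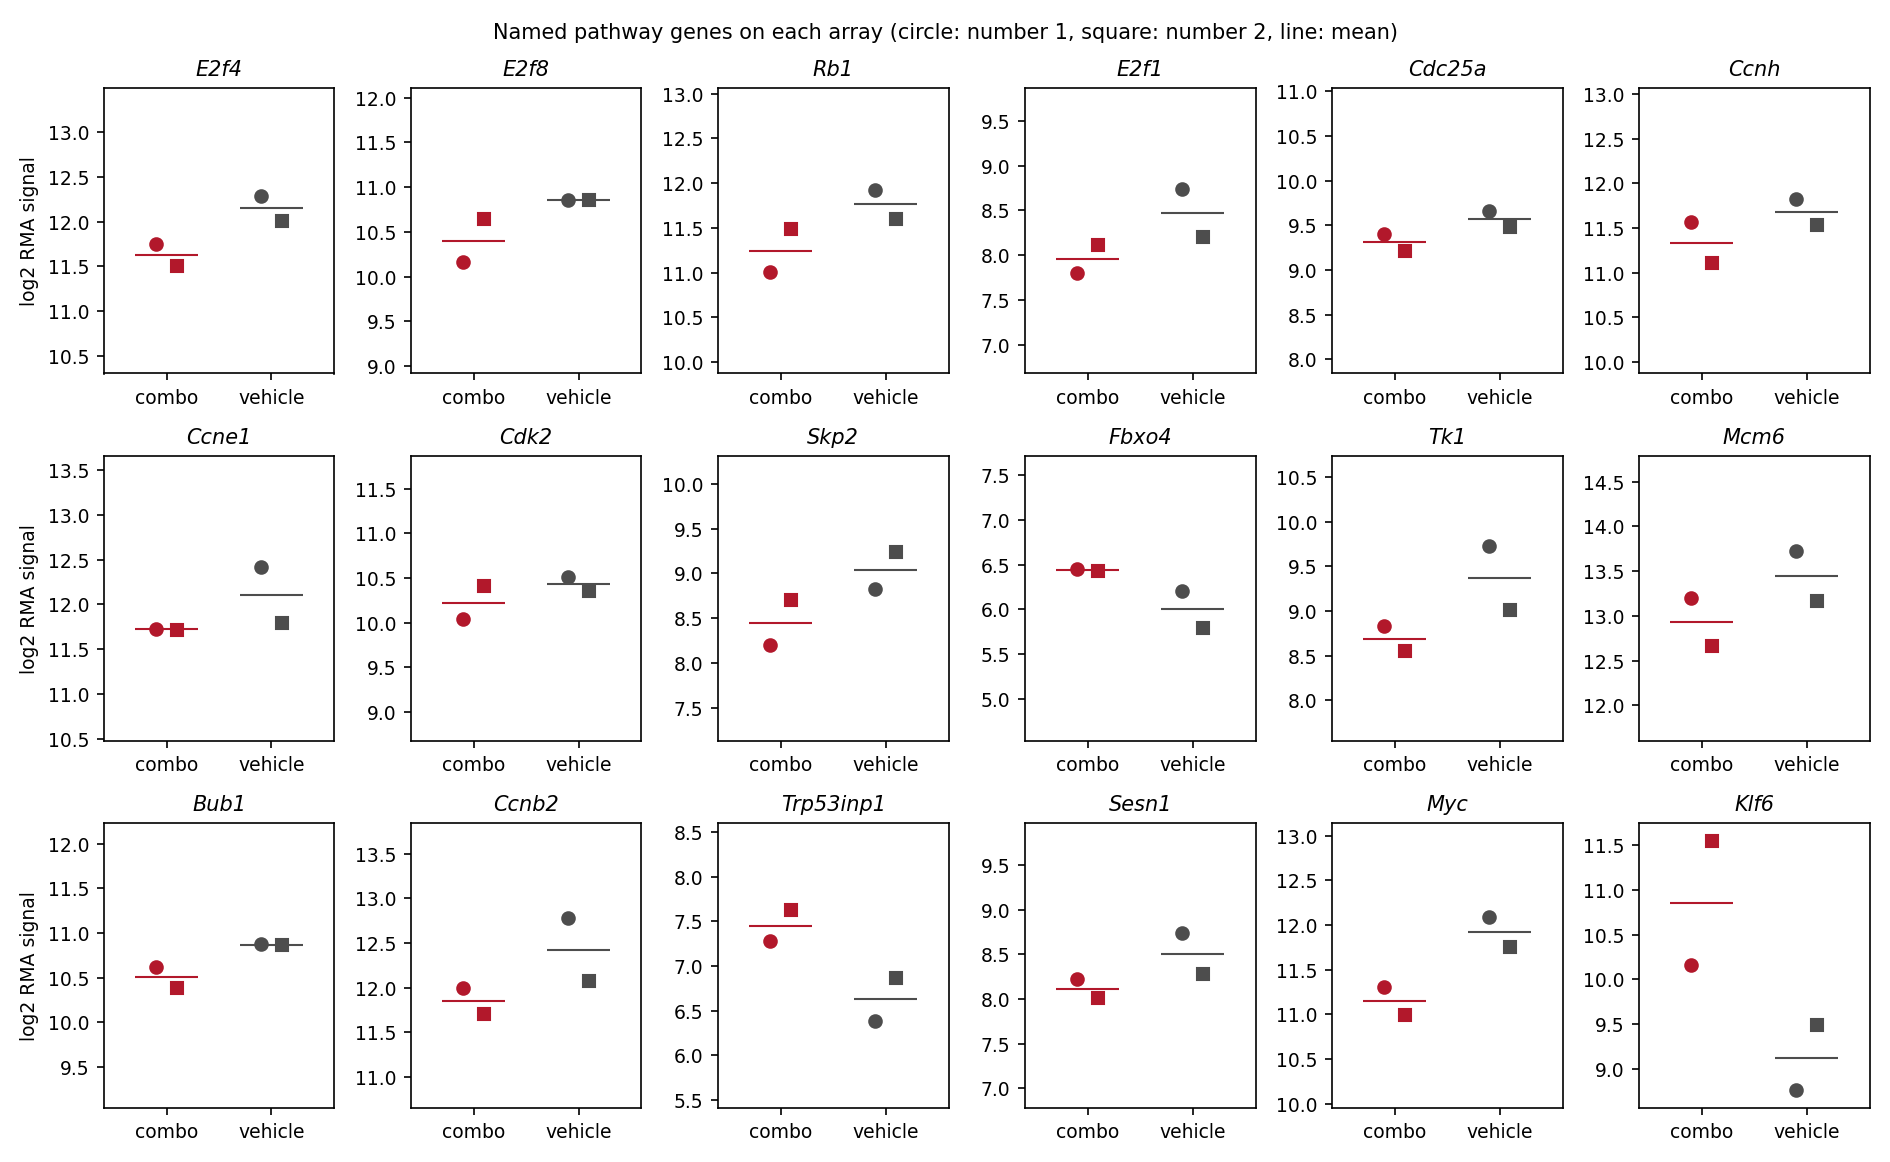
Log2 RMA signal of the 18 named pathway genes on each array, with the combination left of vehicle, circles for arrays numbered 1, squares for those numbered 2 and a line at each group's mean. Myc lies between 11.00 and 11.31 on the combination arrays and between 11.75 and 12.09 on the vehicle arrays, while Trp53inp1 and Klf6 are higher on both combination arrays.

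The genes whose centred values over the 4 arrays lay nearest to those of Cdkn1b, among 18037 protein-coding genes, were Zc3h12a, Jak2 and Cry1, at Euclidean distances of 0.04, 0.07 and 0.07 on the log2 scale. Zc3h12a, which encodes an RNA-degrading regulator of inflammation, was at 6.43 and 6.88 on the combination arrays, against 5.96 and 6.10 on the vehicle arrays. Nearest to Cdk4 were Nfix, Surf2 and Nelfcd, at 0.03, 0.03 and 0.04. With 4 arrays such likeness describes the pattern and no more.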

How the data were processed

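Gene expression was measured on 4 arrays, 2 per group. Per the submitters' processing notes, the authors ran RMA within the Transcriptome Analysis Console, and the deposited table holds the resulting log2 signals. Neither version nor genome build is stated in what was used here. RMA hides changes in total RNA and compresses dim signals. Of 72688 rows, 6732 control rows were left out, which left 65956 features. Having 2 arrays per group limits the precision. Medians per array were 4.36 to 4.44, and means of the 23 background probe sets 3.07 to 3.16. Of the features, 30604 had 1 distinct gene symbol, 2146 had several and stayed unnamed, and 33206 had none. Entrez identifiers updated 827 symbols through RefSeq (GRCm38.p6). For genes with several probe sets the brightest was used.

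Limma 3.58.1 in R 4.3.3 (lmFit, eBayes) tested combination against vehicle on all features, two-sided, with no term but group, with Benjamini-Hochberg adjustment at 0.05. SE and 95% intervals are limma's moderated ones, with 2 residual and 2.59 prior degrees of freedom. Simulated data for this comparison had all 65956 features, of which 200 were changed in each of 5 simulations. Noise was independent between arrays, with no effect of the replicate number. In this setting the fit called 0% of features changed by 1 on the log2 scale, 7.6% by 2 and 71.2% by 3. Other settings were not simulated. The labels call the duplicates biological but do not give their source, so p-values measure only the spread between these samples.

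The G1 genes, the 16 further gene lists and the motifs were chosen with earlier results of these data known. Named were the G1 genes, the 2 or 4 genes with the smallest p of each pathway list and the 2 with the smallest p of the exposure checks, with exceptions stated. Alternative fits used the replicate number as a block, a trended or robust prior, 2 filters on dim features, a second quantile normalization, centring on medians, control rows kept and each array left out. Averaging probe sets of a gene was not run as a separate fit, since each G1 gene had 1.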

Additional observations from a re-analysis of the deposited data

How the results depend on the processing

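None of the 9 G1 regulators passed limma's adjusted threshold in any of the 12 alternatives, and 104 of 108 values kept their direction. The 4 reversals came from leaving out 1 array. Cdkn2c was at 0.10 without vehicle 1 and at 0.0041 without combination 1 (range -0.29 to 0.10 without 1 array), Ccnd2 at -0.082 without vehicle 2 (-0.082 to 0.26) and Cdkn1a at -0.016 without combination 2 (-0.016 to 0.89). The cause was not tested. Cdkn1b stayed between 0.36 and 0.82, and Cdk4 between -0.45 and -0.16. Over all features the main fit made 2 calls. It made 19 with the replicate number as a block and 0 with an intensity trend, with both filters on dim features, after a second quantile normalization, with the control rows kept and without any 1 array. Leaving out an array also leaves fewer residual degrees of freedom. With the replicate number as a block, 0 of the 9 passed and 1 had an unadjusted p under 0.05. The labels do not say what the number shares. The replicate deviations of the groups correlated at 0.33 over features, with 2 pairs only. The count at an unadjusted p under 0.05 was 1 in the main fit, 0 with an intensity trend and 0 to 2 without 1 array. The median of the 9 was -0.10, and -0.17 to 0.10 without 1 array. Signals of Cdkn1c, Cdkn2c and Cdkn2d within the background range limit what these arrays can show of them. Averaging the probe sets of a gene would change nothing, because each of the 9 had 1.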

Other observations

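Among markers of the cells in the LK fraction, the transferrin receptor gene Tfrc, which brings iron into dividing and erythroid cells, was at 10.03 and 9.93 on the combination arrays, against 10.79 and 10.74 on the vehicle arrays. It was lower on both combination arrays, with an unadjusted p of 0.0023 in limma. All 5 measured erythroid markers had a lower combination mean, with a median difference of -0.56. Only for Tfrc, 1 of the 5, did both combination arrays lie below both vehicle arrays, as for 13.9% of all features. The progenitor factor gene Sox4 was at 8.71 and 9.39 on the combination arrays, against 9.63 and 10.42 on the vehicle arrays. Of 9 measured stem and progenitor markers, 8 had a lower combination mean, with a median difference of -0.18. Over all features the median difference was 0.02, and the share with a lower combination mean was not computed. Larger differences of single genes lay in other marker lists, where Ppbp (5.52), F13a1 (2.92) and Mmp8 (2.43) were higher and Mrc1 (-2.19) was lower. Their lists did not move as a whole. The median difference was 0.10 over 6 megakaryocyte and platelet markers, -0.07 over 8 monocyte and macrophage markers and 0.14 over 9 neutrophil markers. The combination mean was the higher one for 4, 4 and 8 of these. None of the markers named here passed limma's adjusted threshold, and they were named after their values were seen.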
